A study of Mus musculus with 4 samples.

Results

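Ndn, Magel2, Mkrn3, Snrpn, Snurf, Peg12 and Ube3a are 7 genes of the imprinted domain on mouse chromosome 7 that corresponds to the human Prader-Willi and Angelman syndrome region. They were found by symbol in the deposited table of counts, where they take up 6 of 34315 features because Snrpn and Snurf share a feature. The choice was made with the difference between wild-type and knockout cells in these data known, so that difference is described here and is not tested. Haematopoietic stem cells (HSCs), the marrow cells that renew the blood, were sorted from mice by the markers SP-KSL-CD150+ and sequenced after polyA selection without culture. The wild-type group is C57BL/6, and the labels call its 4 libraries technical replicates from 1 biological replicate, although the design text of the series mentions duplicates. Whether their spread holds differences between animals is therefore not known. The other group is labelled Dnmt3a-KO, for a DNA methyltransferase that places methyl groups on unmethylated CpG dinucleotides. It enters only through values of the authors' deposited table, which are a mean count over its libraries, the log2 of its change against wild type and an adjusted p. The strain of that group, the age of the mice, the deleted part of Dnmt3a and any Cre driver are details not given in the sources used here. Parental alleles cannot be told apart in these counts.

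Imprinted genes are read mainly from the chromosome of a single parent, and the choice is kept by DNA methylation laid down in the egg or the sperm. In this domain the Snrpn promoter carries the imprinting centre, which is methylated on the maternal chromosome, and Ndn, Magel2, Mkrn3, Peg12, Snrpn and Snurf are read from the paternal one. A long noncoding transcript, Snhg14, starts at Snrpn and runs on to Ube3a, where in neurons it silences the paternal copy, while most other cells read Ube3a from both. Necdin, the protein of Ndn, is a growth suppressor of the MAGE family that binds p53 and E2F1, and it has been described as a p53 target that limits the proliferation of HSCs.

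The promoters of the 3 genes that mark the range of behaviour in these data are shown: Ndn and Snrpn, which were near or at 0 in the knockout mean, and Ube3a, which was not. As these genes were picked by that contrast, nothing is read from differences between their promoters. Each line gives the 250 bases before a RefSeq transcription start in build GRCm38.p6, with CpG dinucleotides in capitals. The windows are chr7:62348027-62348276 on the plus strand for Ndn, chr7:60005200-60005449 on the minus strand for the start shared by Snrpn and Snurf, and chr7:59228500-59228749 on the plus strand for Ube3a.
Ndn: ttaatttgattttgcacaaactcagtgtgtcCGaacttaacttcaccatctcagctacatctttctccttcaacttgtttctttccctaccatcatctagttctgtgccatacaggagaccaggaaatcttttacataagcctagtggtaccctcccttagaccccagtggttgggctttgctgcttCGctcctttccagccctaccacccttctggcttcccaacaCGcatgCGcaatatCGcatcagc
Snrpn and Snurf: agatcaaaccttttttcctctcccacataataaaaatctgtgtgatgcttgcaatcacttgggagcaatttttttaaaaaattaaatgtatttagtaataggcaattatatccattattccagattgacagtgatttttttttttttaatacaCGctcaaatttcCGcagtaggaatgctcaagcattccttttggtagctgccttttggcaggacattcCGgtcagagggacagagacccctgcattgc
Ube3a: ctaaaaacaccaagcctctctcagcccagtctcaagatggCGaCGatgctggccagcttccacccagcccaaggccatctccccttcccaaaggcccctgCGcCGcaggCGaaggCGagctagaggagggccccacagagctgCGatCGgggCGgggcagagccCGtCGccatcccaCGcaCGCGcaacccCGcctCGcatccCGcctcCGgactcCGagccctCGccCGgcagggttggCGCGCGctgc
The Ndn window held 5 CpGs, the window of Snrpn and Snurf held 3 and the Ube3a window held 24. Among 32851 windows of the same kind the median was 6 CpGs, with quartiles of 2 and 16. All 7 genes were matched in the RefSeq promoter table. Magel2 had 7 CpGs, Peg12 had 8 and Mkrn3 had 10, and 3 further starts listed for Snrpn had 4, 3 and 2. Ndn, Snrpn and Snurf thus had the fewest CpGs of the domain, all between the lower quartile and the median of all windows, and Ube3a was above the upper quartile. The windows stop at the start, so CpGs past it are not counted. Methylation was not measured in the data used here, and the count of CpGs says nothing of the imprinting mark itself.

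**Figure D1:**
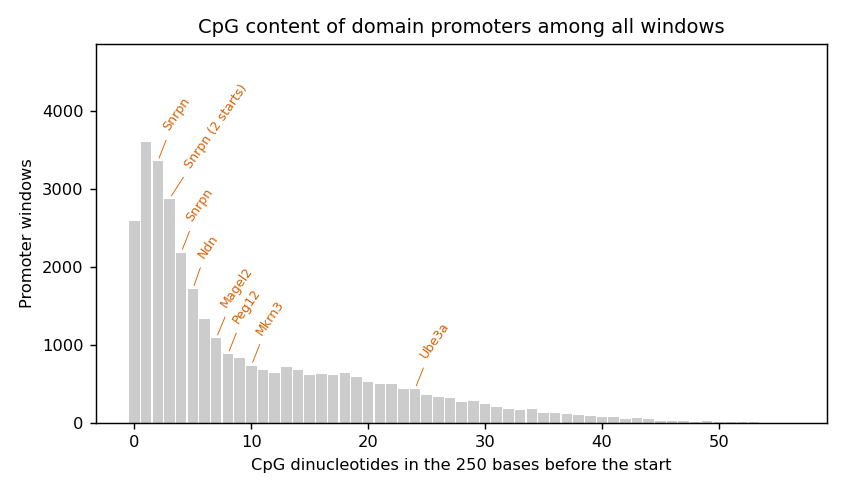
Number of CpG dinucleotides (x axis) in the 250 bases before each RefSeq start, with the number of windows on the y axis for 32851 windows in grey and the genes of the domain marked in place. Ndn at 5 and the Snrpn starts at 2 to 4 lie below the median of 6, and Ube3a at 24 lies in the right tail.

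The Ndn promoter and all 4 Snrpn starts shared the 8-base palindrome CGCATGCG, the core of the element that the activator NRF1 binds. It is shown in capitals in 30-base windows on the strand of each gene, beginning with Ndn at chr7:62348243-62348272 and the proximal start of Snrpn and Snurf at chr7:60005150-60005179. The 3 distal Snrpn windows are at chr7:60048031-60048060, chr7:60140285-60140314 and chr7:60450222-60450251.
Ndn: gcttcccaacaCGCATGCGcaatatcgcat
Snrpn and Snurf, proximal start: cagccattgcctgggaCGCATGCGtaggga
Snrpn, nearest distal start: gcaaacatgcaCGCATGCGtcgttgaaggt
Snrpn, middle distal start: gcaaacatccaCGCATGCGtgatgggaggg
Snrpn, farthest distal start: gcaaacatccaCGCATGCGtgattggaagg
The centre of the palindrome was 19 bases before the Ndn start and 40 bases past the proximal Snrpn start, and 67, 74 and 59 bases before the distal ones. It occurred in 615 of 32851 windows that run from 250 bases before to 50 bases past the start, or 1.87%. The 3 distal Snrpn windows also begin with the same letters, gcaaacat, so they may not be separate matches to set beside that share. Of 2 other motifs read on both strands, AAGATGGC, the core bound by YY1, was found among these genes at Ube3a alone and in 2.75% of all windows. CCGGAAGT, an element of ETS factors, was found at Mkrn3 alone and in 3.89% of all windows. These matches lie at different genes, and the motifs were picked after these letters had been read. A match describes letters only, and whether a factor binds was not measured.

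Wild-type totals ran from 40709659 to 47408552 counts, and the authors' deposited knockout mean summed to 41930967. Counts are given as normalised counts, that is after division by median-of-ratios size factors, with the knockout mean put on the same scale. The median chi-square per degree of freedom was 0.763 for libraries 1 and 2 and 0.682 for libraries 3 and 4, where counting noise alone gives 0.455, and the means were 2.03 and 1.87, so the libraries of a pair differed by somewhat more than that noise. Across the pairs the medians stood at 11.99 to 12.95. The labels give the pairs no name, so each is counted as 1 sample and no test was made between them. Of 13089 features with a wild-type mean of at least 100 normalised counts, 6.11% differed between the pairs by at least a factor of 2. Dnmt3a itself was at 8229, 8569, 5400 and 5208 normalised counts in wild-type libraries 1 to 4 and at 8424 in the knockout mean, so its count does not separate the groups. The authors' deposited table lists Dnmt3a at 0.30 on the log2 scale (adjusted p = 0.952). As the deleted part is not given, reads over the whole gene check nothing about the label. All 12 HSC markers listed were detected, with sums of 158716, 157262, 193107 and 189353 in wild type and 152464 in the knockout mean. Cd34 was the only one of the 12 called in the authors' deposited table, with a log2 fold change of -4.72. Over all features tested 6.84% were called in either direction. Scaling by total counts in place of size factors would lower the knockout side of every gene by a median of 0.34 on the log2 scale, so log2 values between 0 and that shift, those of Ube3a, both other makorins and Magee2 among them, turn negative under it.

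In wild-type HSCs the domain held abundant, intermediate and silent genes. Per kb of exon, the scale on which genes can be compared, Ndn averaged 1064 normalised counts over the 4 libraries and Ube3a 889. Peg12 followed at 243, the shared feature of Snrpn and Snurf at 90.8 and Mkrn3 at 81.5, and Magel2 was at 0 in 3 libraries and at 0.225 in library 2. Among features with a wild-type mean of at least 10 normalised counts, Ndn stood at the 77.6th percentile of the wild-type level per kb. Ube3a stood at the 73.0th, Peg12 at the 42.9th, Snrpn and Snurf at the 29.8th and Mkrn3 at the 28.6th. Not every neighbour in this order was separate. Ndn ranged from 750 to 1388 normalised counts per kb and Ube3a from 849 to 924, and Ndn was below Ube3a in libraries 1 and 2 and above it in libraries 3 and 4. The feature of Snrpn and Snurf crossed Mkrn3 in the same way, with ranges of 56.9 to 126 and 61.6 to 107. The ranges of Ube3a and Peg12, of Peg12 and Snrpn, and of Mkrn3 and Magel2 did not overlap.

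**Figure D2:**
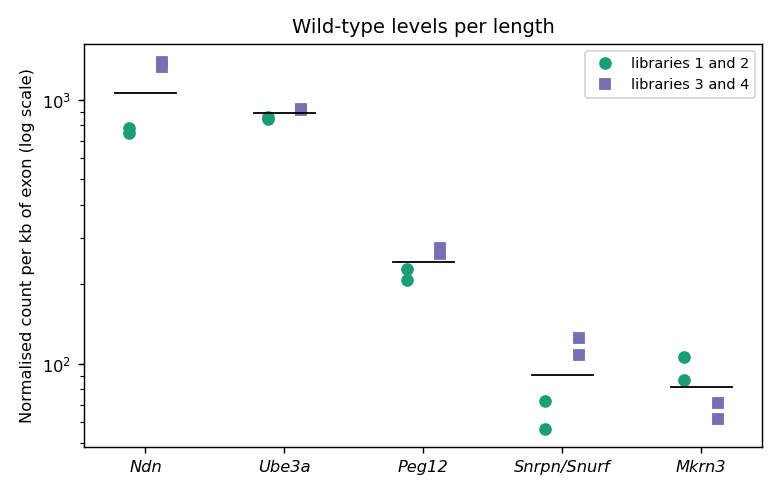
Normalised count per kb of exon (y axis, log scale) of each domain gene (x axis) in the 4 wild-type libraries, with circles for libraries 1 and 2, squares for libraries 3 and 4 and a line at the mean of 4. Ndn at 750 to 1388 and Ube3a at 849 to 924 overlap, as do Snrpn with Snurf and Mkrn3.

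Ndn (mm9 chromosome 7, 69493163 to 69494813, plus strand, a gene whose exon length equals its span) had 1237, 1295, 2289 and 2199 normalised counts in wild-type libraries 1 to 4. The authors' deposited knockout mean held 1 read over all its libraries, which is 0.330 on the same scale. All 4 wild-type libraries were therefore far above the knockout mean, and libraries 3 and 4 were 1.77-fold above libraries 1 and 2. The ratio of wild type to knockout has an exact Poisson interval of 969 to 213365, which covers counting error only. Against libraries 1 and 2 alone the interval was 689 to 151773, and against libraries 3 and 4 it was 1221 to 268977. The log2 fold change of Ndn is -12.38 from these normalised counts and -10.19 in the authors' deposited table, where its adjusted p is 8.49e-12. In bulk RNA, fewer cells that hold a transcript and less of it per cell cannot be told apart.

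The authors' deposited table called 2 of the 5 domain features it tested lower in the knockout at an adjusted p under 0.05, Ndn and the feature of Snrpn and Snurf, and called none higher. Over all 21778 features tested, 3.70% were called lower and 3.15% higher. At limits of 0.01 and 0.1 these 2 were again the domain features called, where 3.53% and 9.38% of all features were called in either direction. As the genes were chosen from this contrast, nothing is read from that difference. The gap between the wild-type pairs was not particular to Ndn either: 9.13% of the 13089 features at or above 100 normalised counts were at least as far apart in either direction. With libraries 3 and 4 as the higher pair, 2.72% were. A feature on the opposite strand, HAG_037550, covers all 1651 bases of Ndn and held 99.7% to 99.8% as many counts in each library. The library kit named in the labels does not mark strand, so reads of these overlapping features cannot be assigned to either one.

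Summed markers of marrow stroma, of endothelium and of HSCs themselves, like Ndn, were higher in libraries 3 and 4 and lowest in the knockout mean. The 10 stromal markers summed to 2338, 2226, 3290 and 3020 normalised counts in wild-type libraries 1 to 4 and to 1729 in the knockout mean. Of these, 9 were higher in both of libraries 3 and 4 than in libraries 1 and 2, 6 had their lowest value in the knockout mean, and Lum was at 0 in libraries 1 and 2 and in the knockout. Lepr and Cxcl12 were the stromal markers called lower in the authors' deposited table, where 3.70% of all features tested were called lower. The 5 endothelial markers summed to 4845, 4899, 8116 and 8035 in wild type and to 4509 in the knockout mean, and all 5 were higher in libraries 3 and 4. Tek made up most of the knockout sum, with a deposited mean count of 2573 before scaling. The others were Kdr at 565.5, Emcn at 230, Cdh5 at 35.25 and Flt4 at 16.5. For 2 of the 5 markers the knockout mean was the lowest value, and the authors' deposited table called none. Some markers went the other way: the authors' deposited table lists Col1a1 at 1.26, Col1a2 at 0.79 and Cdh5 at 0.69 on the log2 scale, none called. Of the 12 HSC markers, 10 were also higher in both of libraries 3 and 4 than in libraries 1 and 2. Their sum was likewise lowest in the knockout mean, at 152464 against 157262 to 193107 in wild type. Of the 12, 4 had their lowest value there. The part of stromal and endothelial cells in the Ndn values was not tested.

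**Figure D3:**
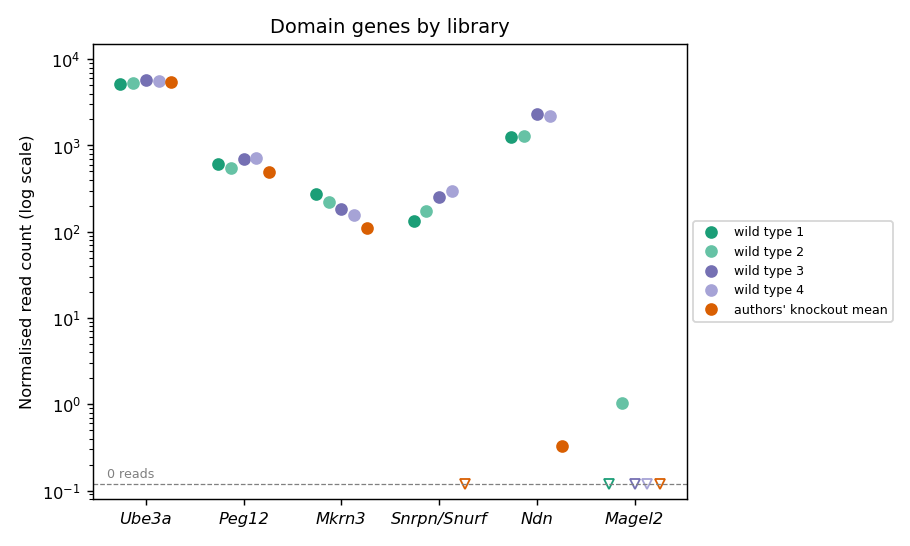
Normalised count (y axis, log scale, with 0 reads drawn as triangles on a dashed line) of each domain feature in wild-type libraries 1 to 4 and in the authors' knockout mean (x axis). Ndn goes from 1237 to 2289 in wild type to 0.330 in the knockout mean and Snrpn with Snurf to 0 reads, while Ube3a stays between 5201 and 5661.

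Snrpn encodes SmN, a brain-enriched relative of the spliceosomal protein SmB, and Snurf is a small protein read from the same transcript. Their shared feature (mm9 chromosome 7, 67127387 to 67285105, minus strand) had 135, 172, 256 and 298 normalised counts in wild-type libraries 1 to 4 and 0 reads in the knockout mean. Every wild-type library was above the knockout, and libraries 3 and 4 were again the higher pair, by 1.81-fold. Taking 3 counts over the knockout arm as the floor, the level was at least 221-fold lower there, at least 155-fold against libraries 1 and 2 and at least 280-fold against libraries 3 and 4. The feature stands at -7.45 on the log2 scale in the authors' deposited table, with 2.41e-07 as its adjusted p. A gap between the wild-type pairs as wide as this was found in 8.53% of the features with 100 or more normalised counts in either direction, and in 2.51% with libraries 3 and 4 higher. The sums of the stromal, endothelial and HSC markers were likewise higher in libraries 3 and 4 and lowest in the knockout mean. The part of these cells was not tested here either.

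The noncoding transcript that follows Snrpn is covered by separate features, of which RefSeq lists D7Ertd715e and C230091D08Rik under Snhg14. D7Ertd715e ends 8.07 kb from the Snrpn feature and had 99.9, 93.2, 6.68 and 6.57 normalised counts in wild-type libraries 1 to 4 and 0 reads in the knockout mean. It was thus high in libraries 1 and 2 and low in libraries 3 and 4, the reverse of Ndn and Snrpn, and all 4 were above the knockout. The bound was at least 49.8-fold lower over all 4 libraries, but at least 97.6-fold against libraries 1 and 2 and at least 6.70-fold against libraries 3 and 4. The authors' deposited table lists D7Ertd715e at -5.41 on the log2 scale (adjusted p = 2.59e-04). Of features with at least 100 normalised counts, 0.244% were as far apart between the wild-type pairs. The wild-type mean of D7Ertd715e, 51.6, is below that cut, and features at its own level were not counted. C230091D08Rik, which begins 1197 bases past the end of Ube3a, was at 1895, 1807, 1818 and 1795 normalised counts in wild type and at 1496 in the knockout mean. It is listed at -0.29 on the log2 scale in the authors' deposited table (adjusted p = 0.954). These features listed under Snhg14 therefore had different values in the knockout mean. D7Ertd715e had 0 reads, and C230091D08Rik had a level below all 4 wild-type libraries that was not called. Strand is not marked and Ube3a ends 1197 bases away, so whether the reads of C230091D08Rik come from the long transcript cannot be told. Ipw and A330076H08Rik, which lie in the domain as well, each had 1 read in wild type and 0 in the knockout mean.

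The other paternally read genes of the Ndn cluster did not share its near loss. Mkrn3 encodes a RING finger protein that is known in humans for holding back puberty. It lies at 69562479 to 69565025 on the minus strand and had 271, 221, 181 and 157 normalised counts in wild-type libraries 1 to 4 and 111 in the knockout mean. The knockout value was below all 4, and libraries 3 and 4 were here the lower pair, so that Mkrn3 ran against Ndn between the pairs. On the log2 scale Mkrn3 is at -0.89 in the authors' deposited table (adjusted p = 0.707). Peg12, also called Frat3, belongs to a family of proteins that bind the kinase GSK3 in Wnt signalling. Located at 69606757 to 69609396 on the minus strand, it had 603, 549, 689 and 724 normalised counts in wild type and 488 in the knockout mean. That was also below all 4 libraries, and the authors' deposited table lists Peg12 at -0.39 on the log2 scale (adjusted p = 0.930). Neither gene passed the test, which does not show that they did not differ.

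Magel2, a MAGE protein that works with the ubiquitin ligase TRIM27 on endosomes, lies between Ndn and Mkrn3 at 69521865 to 69526526 on the plus strand. It had 1 read in wild-type library 2 and 0 reads in the other 3 libraries and in the knockout mean. With 0 reads a library allows a level of up to 0.0737 CPM (counts for each 1000000 reads) in library 1 and 0.0633 in library 3. The gene was at or under the floor in both groups, the authors' deposited table holds no test of it, and no difference was detectable at this depth. Ndn and Magel2 are adjacent and both paternally read, yet in these wild-type cells Ndn was among the most abundant genes of the domain, with Ube3a, and Magel2 the least.

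Ube3a, a ubiquitin ligase of the HECT class, had the smallest change of the 5 domain features tested. It lies at 66484120 to 66562097 on the plus strand and had 5201, 5287, 5661 and 5619 normalised counts in wild-type libraries 1 to 4 and 5474 in the knockout mean, which falls inside the wild-type range. The authors' deposited table lists Ube3a at 0.01 on the log2 scale (adjusted p = 1), and scaled by total counts the log2 ratio was -0.33. A230073K19Rik lies on the opposite strand over 7288 bases of Ube3a and held 6.08% to 7.56% as many counts. It was at 341, 399.9, 344 and 343 normalised counts in wild type and at 351 in the knockout mean, and the authors' deposited table lists it at -0.02 on the log2 scale (adjusted p = 1). Because strand is not marked, some of these reads may count for either gene.

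Between Ube3a and Peg12 the domain spans 3125277 bases and holds 21 features. Of these 11 had a wild-type mean of at least 10 normalised counts, and the authors' deposited table called 4 of them lower and 0 higher. The 4 were Ndn, HAG_037550, whose reads cannot be told from those of Ndn, the feature of Snrpn and Snurf, and D7Ertd715e. Over all features tested 3.70% were called lower, and as the domain was chosen from this contrast nothing is read from the difference. Ndn and Snrpn are 2208 kb apart, and the features between them were almost silent in wild type, except for HNG_035600 and Gm10297, which overlap each other. HNG_035600 had 53.6, 53.4, 52.5 and 70.4 normalised counts in wild-type libraries 1 to 4 and 71.5 in the knockout mean, above all 4. It was not called, at 0.31 on the log2 scale in the authors' deposited table.

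Outside the domain, within 1000000 bases on the Ube3a side, 4 features were found and the authors' deposited table called none, where 6.84% of all features tested were called. The phospholipid flippase gene Atp10a on that side had 4107, 4216, 3685 and 3689 normalised counts in wild type and 7770 in the knockout mean, above all 4 libraries. Atp10a is at 0.99 on the log2 scale in the authors' deposited table (adjusted p = 0.656). On the Peg12 side 1 of 4 features was called lower, Chrna7, a subunit of the nicotinic acetylcholine receptor that begins 634 kb past Peg12. It had 25.2, 37.7, 72.5 and 75.1 normalised counts in wild type and 0 reads in the knockout mean, so it was at least 54.4-fold lower, at least 31.8-fold against libraries 1 and 2 and at least 74.7-fold against libraries 3 and 4. Chrna7 was higher in libraries 3 and 4, as Ndn and Snrpn were, and it is listed at -5.46 on the log2 scale in the authors' deposited table (adjusted p = 2.20e-04).

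**Figure D4:**
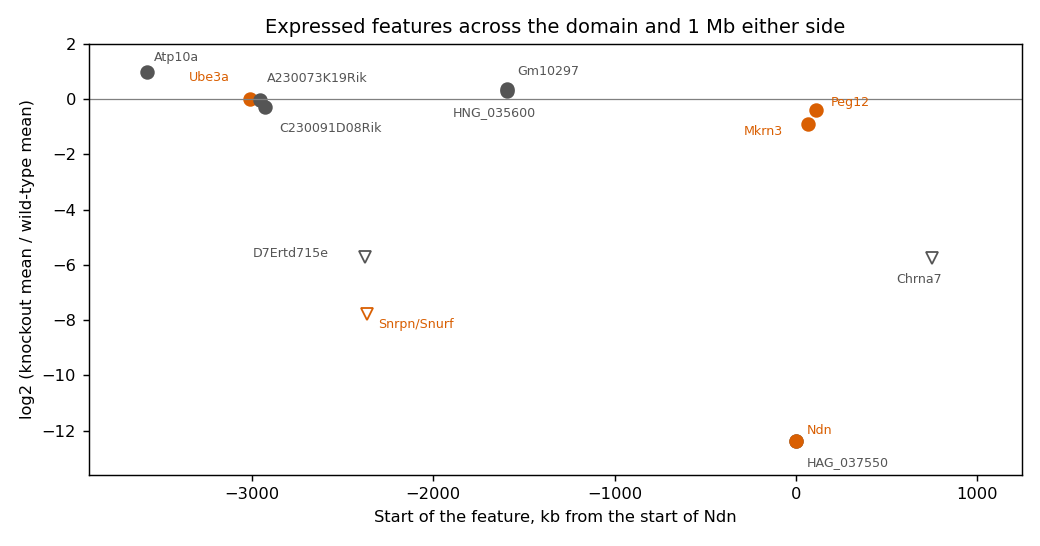
Log2 of the knockout mean over the wild-type mean (y axis) of the features along the domain, plotted by distance from the Ndn start in kb (x axis), with domain genes in orange and other features in grey. Open triangles have 0 knockout reads and are drawn at the bound of 3 reads over the arm, and Ndn, Snrpn with Snurf and D7Ertd715e lie far below Mkrn3, Peg12 and Ube3a.

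Near loss of a well-read transcript was rare over the table as a whole. Of the 13089 features with a wild-type mean of at least 100 normalised counts, 17 had 0 knockout reads and 24 had at most 1, which is 0.183%. Of the 8332 features at or above 1000, none had 0 and 3 had at most 1 read. These were Ndn, the overlapping HAG_037550, and Meg3, an imprinted noncoding RNA of chromosome 12 that is read from the maternal side. Meg3 had 2166, 2073, 122 and 136 normalised counts in wild-type libraries 1 to 4 and, like Ndn, 1 read over the knockout arm. Its wild-type pairs were thus far more apart than those of Ndn and in the opposite order. The feature of Snrpn and Snurf was at rank 9 by wild-type level among the 24.

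**Figure D5:**
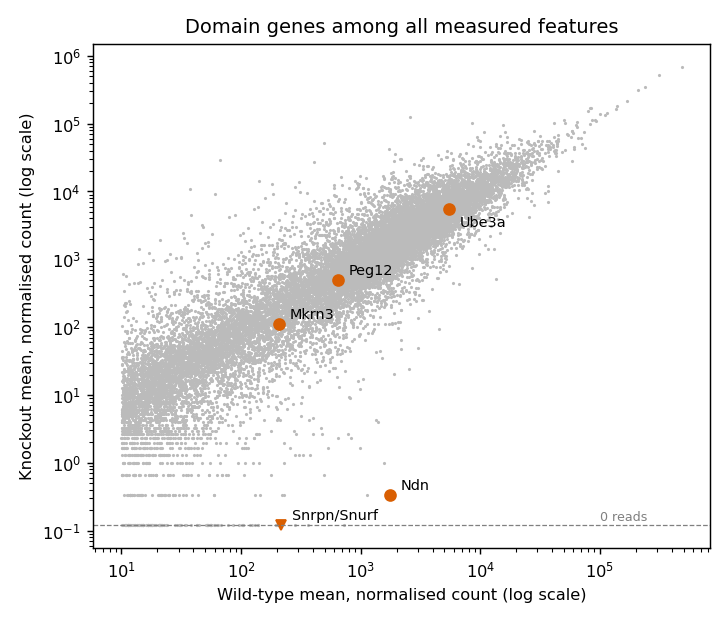
Knockout mean (y axis) against wild-type mean (x axis), both in normalised counts on log scales, with 0 knockout reads drawn as triangles on a dashed line. The domain genes Ndn and Snrpn with Snurf lie in the sparse lower right, and Mkrn3, Peg12 and Ube3a lie near the main band.

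The transcripts alike in profile to Ndn and Snrpn were sought by Euclidean distance over log2 of 5 values, each with 1 added, the 4 wild-type libraries and the knockout mean. The mean of the 4 wild-type log2 values was first subtracted from each feature, so the wild-type libraries were compared by pattern. Where the knockout mean is at or near 0, however, its value after that subtraction follows the wild-type level. Features with near loss from a like level are thus close by construction, and nothing is read from the distances. The search covered 11235 features with a gene symbol and at least 50 normalised counts in wild type. Nearest to Ndn were Dcaf12l1 at a distance of 1.83, Tmem47 at 1.96, Mpped2 at 2.21, Dsc2 at 2.63 and the feature of Snrpn and Snurf at 2.64. Dcaf12l1 had 841, 863, 1153 and 1083 normalised counts in wild-type libraries 1 to 4 and 1.65 in the knockout mean. Nearest to Snrpn were Dsc2 at 0.177, Mpped2 at 0.512, Scara5 at 0.575, Luzp2 at 0.727 and Tmem47 at 0.814. Dsc2, a desmosomal cadherin, had 146, 159, 264 and 286 normalised counts in wild type and 0 reads in the knockout mean, almost the values of Snrpn in each library.

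The families of the domain genes did not show the near loss of Ndn and Snrpn. Of the 8 Sm proteins and their relatives other than Snrpn, none was called in either direction in the authors' deposited table, and their median log2 fold change was -0.43, with a range of -0.74 to -0.07, beside -0.04 over all tested features with the same minimum of 10 normalised counts. Over all features tested 6.84% were called in either direction, so few or no calls would be found in a list of 8 at that share. Snrpb, which makes the SmB that SmN resembles, had 8503 to 9082 normalised counts per kb in wild type and 8343 in the knockout mean. Snrpn at 56.9 to 126 per kb was thus a minor Sm transcript in these wild-type cells. Snrpd3 was the lowest of the 8 in the authors' deposited table at -0.74 on the log2 scale (adjusted p = 0.786), followed by Snrpd1 at -0.68, Snrpb2 at -0.59, Snrpf at -0.59, Snrpd2 at -0.26, Snrpe at -0.15, Snrpb at -0.08 and Snrpg at -0.07.

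Of the MAGE genes other than Ndn and Magel2, 6 were measured and the authors' deposited table called none, with a median log2 fold change of 0.67. As 6.84% of all features tested were called, the lack of a call among 6 genes says little of the family. Maged1, another MAGE protein that binds cell death regulators, averaged 2218 normalised counts per kb in wild type, above the 1064 of Ndn. Maged2 averaged 935 per kb, Ndnl2, a subunit of the SMC5/6 complex, 830, Mageh1 468, Magee1 193 and Magee2 27.2. The authors' deposited table lists log2 values of 0.90 for Maged1, 0.63 for Maged2, 0.71 for Ndnl2, 0.80 for Magee1, 0.05 for Magee2 and -0.92 for Mageh1. Mageh1 was the only one whose knockout mean, 343 normalised counts, lay below all 4 wild-type libraries, which ran from 587 to 688. Magea10 and Mageb18 had 0 reads throughout. The makorins Mkrn1 and Mkrn2, close relatives of Mkrn3, averaged 1888 and 739 per kb in wild type, and with log2 fold changes of 0.09 and 0.13 neither was called in the authors' deposited table.

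Among partners and targets of necdin, 16 were measured, and the authors' deposited table called 2 lower and 1 higher, with a median log2 fold change of 0.42, where 3.70% of all features tested were called lower and 3.15% higher. Ccnb1, the cyclin of mitotic entry, fell by 4.37 on the log2 scale in the authors' deposited table (adjusted p = 2.45e-04). E2f2, a cell cycle transcription factor, fell by 2.62 in the authors' deposited table (adjusted p = 0.0390). Cdkn1a, the p21 inhibitor of cyclin-dependent kinases and a p53 target, rose by 3.83 on the log2 scale in the authors' deposited table (adjusted p = 0.00133). Cdkn1a had 158, 213, 885 and 858 normalised counts in wild type and 7573 in the knockout mean, so the wild-type pairs were also apart. Trp53, the gene of p53, was at 8474 to 9067 normalised counts in wild type and 8696 in the knockout mean, and E2f1 at 1553 to 2747 and 1323. The authors' deposited table lists log2 values of -0.02 for Trp53 and -0.69 for E2f1, and neither was called.

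Partners of Magel2 and of Ube3a gave no call, where 6.84% of all features tested were called, so lists this short say little. Of 5 Magel2 partners measured, the authors' deposited table called 0 and the median log2 fold change was -0.04. Trim27, its ubiquitin ligase, was at -0.04, Usp7, a deubiquitinase, at 0.94 and Vps35, a core subunit of the retromer, at -0.71 in the authors' deposited table. Of 10 partners and substrates of Ube3a measured, 0 were called in the authors' deposited table and the median was 0.06. Rad23b, a proteasome shuttle factor, was the highest of these in wild type with 9623 to 12526 normalised counts, against 11288 in the knockout mean.

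Genes that maintain imprints were also listed, and 0 of the 11 measured were called in the authors' deposited table, with a median log2 fold change of -0.39. At the 6.84% called over all features tested, few or no calls would be found in a list of 11. Zfp57, which binds methylated imprinting centres, had 707, 758, 264 and 278 normalised counts in wild type and 1715 in the knockout mean, above all 4 libraries. The authors' deposited table lists Zfp57 at 1.77 on the log2 scale (adjusted p = 0.237). Its corepressor Trim28 stood at -0.41, the related zinc finger gene Zfp445 at -0.15, Smchd1 at -0.17, Ctcf at -0.88, Setdb1 at -1.02, Ehmt1 at -0.71 and Ehmt2 at -0.39 in the authors' deposited table. Arid4a and Arid4b, whose products act at the Snrpn imprinting centre in mice, stood at 0.95 and 0.90 and Rbl1, of the retinoblastoma family, at -1.87 there. Dppa3, a guardian of imprints in the egg, had 1 read in wild type.

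Imprinted genes elsewhere in the genome moved in both directions. Of 17 paternally expressed genes measured outside the domain, the authors' deposited table called 2 lower and 2 higher, with a median log2 fold change of 1.42. Peg3 in the authors' deposited table fell by 5.13 (adjusted p = 1.89e-04) and Zdbf2 fell by 3.43 (adjusted p = 0.0137) on the log2 scale, while Plagl1 rose by 3.69 (adjusted p = 0.00238) and Peg10 by 2.93 (adjusted p = 0.0174). At a limit of 0.01 the calls of Zdbf2 and Peg10 are lost, which leaves 2. Of 24 maternally expressed genes measured, the authors' deposited table called 3 lower and 1 higher, with a median of -0.32, which turns to 0.03 with no minimum on the level and to 0.04 with a minimum of 50 normalised counts. Meg3 fell by 9.55, Rian fell by 4.04 and Slc22a3 fell by 3.52 on the log2 scale, and Asb4 rose by 3.28 in the authors' deposited table. Peg3 had 53.6, 62.8, 75.4 and 82.6 normalised counts in wild type, a far lower level than Ndn, and 0.659 in the knockout mean. Over all features tested the share called was 6.84% in either direction. Of the paternally expressed genes listed, inside and outside the domain, those called lower at 0.05 were thus Ndn, Snrpn with Snurf, Peg3 and Zdbf2, beside the noncoding D7Ertd715e.

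A wider list of 15 genes on either side of the domain had 10 measured, of which the authors' deposited table called Chrna7 lower and Klf13 higher, with a median log2 fold change of 0.17. Over all features tested 6.84% were called in either direction. Klf13, which encodes a Krüppel-like transcription factor, had 4184, 4311, 5172 and 5077 normalised counts in wild type and 30263 in the knockout mean. It rose by 2.69 on the log2 scale in the authors' deposited table (adjusted p = 0.0317). Herc2, a large ubiquitin ligase gene, was at 0.20, Cyfip1 at 0.13, Nipa1 at -0.81, Nipa2 at 0.96, Tubgcp5 at -0.65, Mtmr10 at 2.19 and Fan1 at -1.93 in the authors' deposited table, none of them called. Gabra5, Gabrg3 and Oca2 had 0 reads throughout, and Trpm1 had 1 read.

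Markers of other cells gave these sums of normalised counts beside the values of the domain genes. Granulocyte markers summed to 51012, 50340, 10292 and 10217 in wild-type libraries 1 to 4 and to 30902 in the knockout mean, so they ran against Ndn and Snrpn between the wild-type pairs and with D7Ertd715e and Mkrn3. Macrophage markers summed to 1111, 1186, 680.1 and 647 in wild type and 679.6 in the knockout mean, but 4 of the 5 were below all wild-type libraries there. The authors' deposited table called 3 of them lower, C1qa at -3.02, C1qb at -3.49 and Emr1 at -2.80 on the log2 scale, and lists Cd68 at 1.40, not called. Erythroid markers summed to 5524 to 7277 in wild type and 716 in the knockout mean, and megakaryocyte markers to 20596 to 24014 and 5160, so that both were lower in the knockout mean, as Ndn was. The authors' deposited table called 5 of 9 erythroid and 3 of 5 megakaryocyte features lower. Over all features tested 3.70% were called lower, the share to set beside these counts and those of the macrophage and lymphoid markers. Lymphoid markers were low, at 104 to 180 in wild type and 52.1 in the knockout mean, and the authors' deposited table called Il7r and Rag1 lower. Neuronal markers, listed because these genes are best known in brain, summed to 6.68 to 9.47 in wild type and 29.3 in the knockout mean, and 3 of the 5 found, Snap25, Rbfox3 and Stmn2, were at 0 in every library and in that mean. The part of any of these cells in the levels of the domain genes was not tested.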

How the data were processed

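RNA of freshly sorted HSCs was sequenced after polyA selection with a TruSeq RNA kit, per the labels, which name no version of it that marks strand. Whole-number counts per feature were deposited by the authors for each wild-type library. A length-scaled signal, deposited by the authors under an FPKM heading, is the count over the exon length in kb and over a fixed 50, in the same ratio in every library for 20187 features with a relative difference of at most 3.7e-14, and it served only to give exon lengths. The knockout mean count, deposited by the authors and treated as a score because it is an average, and the authors' deposited log2 fold change and p-value, taken as adjusted, were used as they stand. The submitters' processing notes name mm9 and DESeq, and no source used here names the aligner, counter or annotation. Of 30 columns, 8 per-library columns without a sample were not used. Promoter sequences are from RefSeq on GRCm38.p6, and no coordinates were moved between builds.

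Size factors by the median of ratios were used to normalise the counts. The knockout mean was put on that scale with the offset in the deposited fold changes, a log2 value of 0.399 (SD 0.00298 over 11936 features). No test between groups was run, since the knockout enters as 1 mean, and calls are the authors' deposited ones at an adjusted p under 0.05. Agreement of libraries was tested with chi-square per feature from 20 reads. Groups at 0 reads were given a floor of 3 counts, and 1 to 3 reads an exact Poisson 95% interval of the ratio. List medians use features of at least 10 normalised counts. The calculation was tested on simulated data. The genes, the 11 lists and 9 marker lists and the rule for named genes (all domain genes, overlapping features, all of the short lists, the called and most abundant of the long ones, and the 5 features most alike) were chosen with earlier results of these data known, and the motifs after their letters were read. Alternatives were total-count and TMM scaling (edgeR 4.0.16 in R 4.3.3), pseudocounts, p limits, level minimums, genomic span as length, and each library left out. Python 3.11.15 with numpy 2.4.6, pandas 2.3.3, scipy 1.17.1 and matplotlib 3.10.9 was used.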

Additional observations from a re-analysis of the deposited data

Results flagged for a closer look

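Of 57 features of the domain and the lists of interest, 5 had a wild-type library far from the other 3, and chance alone gives about 1 in 20. A230073K19Rik, over Ube3a, had 399.9 normalised counts in library 2 and 344 in the next highest library. HNG_035600, between Snrpn and Ndn, had 70.4 normalised counts in library 4 and 53.6 in the next highest. Single reads gave the other 3, which were Magel2 at 1.05 normalised counts in library 2, Dppa3 at 1.05 in library 2 and Trpm1 at 0.939 in library 4, with 0 reads in the remaining libraries of each. A single read with 0 reads elsewhere is always flagged by this rule.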

How the results depend on the processing

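With a pseudocount of 1, the log2 ratio of Ndn, -12.38 from the normalised counts themselves, became -10.37. Leaving out each wild-type library gave -12.51 to -12.22 for Ndn. For Snrpn with Snurf, at 0 knockout reads, each value is a bound against 3 counts over the arm, which was -7.76 from the mean of normalised counts (the report's at least 221-fold pools the reads) and -7.93 to -7.57 with each library left out. The other 19 values of the main comparisons computed under the alternatives kept their direction and size, and no called value changed sign. Under total-count scaling the log2 ratio of Ube3a, not called, was -0.33 and that of Peg12 -0.73. In the 250 bases before the start alone, an alternative chosen after seeing the data, CGCATGCG was in 1.55% of windows. No paired analysis was possible because the knockout enters as 1 mean without replicate numbers. Labels and design text differ on whether wild type is 1 biological replicate, so what the spread between the pairs holds is not known.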

Other observations

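The noncoding piece D7Ertd715e was not the only imprinted noncoding RNA that stood apart between the wild-type pairs, in a set picked after the values were seen. Mean normalised counts of libraries 1 and 2 against libraries 3 and 4 were 2119 and 129 for Meg3, a 16.4-fold difference, 96.5 and 6.63 for D7Ertd715e (14.6-fold), 2592 and 499.7 for Kcnq1ot1 (5.19-fold) and 613 and 303 for Rian (2.02-fold). Airn was at 119 and 96.1, Peg13 at 7895 and 10399 and H19 at 35.2 and 47.8, without such a gap. In the knockout mean Kcnq1ot1 was at 3460 normalised counts, above all 4 wild-type libraries, while D7Ertd715e had 0 reads and Meg3 had 1.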
